A study of Mus musculus with 6 samples.

Results

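Liver burns fatty acids in mitochondria and in peroxisomes, and 54 genes of these routes were examined here in liver from PiZ and wild-type mice. The genes were listed by function and cover fatty acid activation and carnitine-dependent entry, mitochondrial beta-oxidation, ketogenesis, peroxisomal oxidation, peroxisome assembly, cytosolic thioesterases and the hormone Fgf21. Of the 54 genes, 52 were read by a probe set annotated to 1 gene only, out of 12393 genes measured in that way. Where a gene had several such probe sets, the one with the highest mean over all arrays was used. Acsl1 and Acsl3, which encode long-chain acyl-CoA synthetases, were not analysed here.

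The study compared 3 PiZ with 3 wild-type liver samples, each on its own one-colour Affymetrix array, from mice 6 weeks old. PiZ mice carry a transgene for the human Z variant of alpha-1 antitrypsin, a secreted protease inhibitor that misfolds and is retained in the endoplasmic reticulum of hepatocytes. All 6 samples were labelled as C57BL/6. The sources used here did not give the promoter of the transgene or the sex and feeding state of the mice. The labels call the arrays biological replicates. In bulk liver, fewer hepatocytes and less RNA per hepatocyte cannot be told apart.

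In fasting and between meals, fatty acids are joined to coenzyme A, passed across the mitochondrial membranes as carnitine esters by Cpt1a, Slc25a20 and Cpt2, and shortened by cycles of dehydrogenation, hydration, oxidation and thiolysis. The acetyl-CoA so formed can be turned into ketone bodies, which leave the liver as fuel for other organs. Peroxisomes take very long, branched and dicarboxylic chains as well as bile acid precursors, and Pex proteins build the organelle and import its enzymes. The nuclear receptor PPAR-alpha switches on many genes of these routes in fasted liver.

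The arrays differed in RNA quality as well as in genotype. Degraded RNA loses 5′ signal, which probe sets at both ends of Gapdh and beta-actin report. Signal at the Gapdh 3′ end exceeded that at its 5′ end by 1.99, 4.39 and 4.01 (log2) in PiZ replicates 1, 2 and 3, against 1.49 to 2.06 in wild-type arrays. Across all genes, PiZ replicates 2 and 3 correlated at 0.962 to 0.969 with wild-type, PiZ replicate 1 at 0.98 to 0.981, and wild-type arrays among themselves at 0.996 to 0.997 (Pearson). Hepatocyte markers, among them Alb and Ttr, had summed linear intensities of 116648 to 124935 in PiZ and 124797 to 125539 in wild-type arrays, and 1 of the 6 (Tat) rose. Of other cell types, 2 of 3 measured neutrophil markers (S100a8 and S100a9) and 2 of 6 Kupffer cell markers (Clec4f and Marco) rose. The neutrophil sums were 443 to 639 in PiZ and 80 to 135 in wild-type arrays, and the Kupffer cell sums 5381 to 6450 in PiZ and 4689 to 4941 in wild-type arrays. In the limma fit no marker of stellate, bile duct, endothelial, erythroid, lymphoid or fat cells passed, of 6, 4, 5, 2, 3 and 2 measured. The part of these differences in the results below was not tested.

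Among the 52 measured genes, falls outnumbered rises in PiZ liver. At a limma adjusted p below 0.05, 12 fell and 2 rose, which is 23.1% and 3.85% of the 52. Over all 12393 genes 12.3% fell and 11.3% rose, and over the 7398 genes with a mean of at least 6 on the log2 scale, which hold 49 of the 52, 18.7% fell and 13.8% rose. The genes that fell were Cpt1a, Acadl, Acadsb, Etfa, Etfdh, Acat1, Bdh1, Abcd2, Hsd17b4, Scp2, Pex5 and Pex7, and those that rose were Crat and Acaa1a. The median log2 change (PiZ minus wild-type) was -0.36 for the 52 genes and 0.08 for all genes. For genes with a mean of at least 6 it was -0.05. PiZ and wild-type arrays did not overlap, with PiZ lower, for 19 of the 52 genes (36.5%). That held for 19.9% of all genes and 29.6% of genes with a mean of at least 6. With PiZ higher, 6 of the 52 did not overlap (11.5%), beside 24.9% and 23.0%. After cyclic loess 11 fell and 5 rose, where 11.5% of all genes fell and 10.8% rose. After centring on reference genes 10 fell and 4 rose, where 6.67% of all genes fell and 14.9% rose. That centring also moved the share of higher genes among all called genes to 69.1%, against 47.8% without it.

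**Figure D1:**
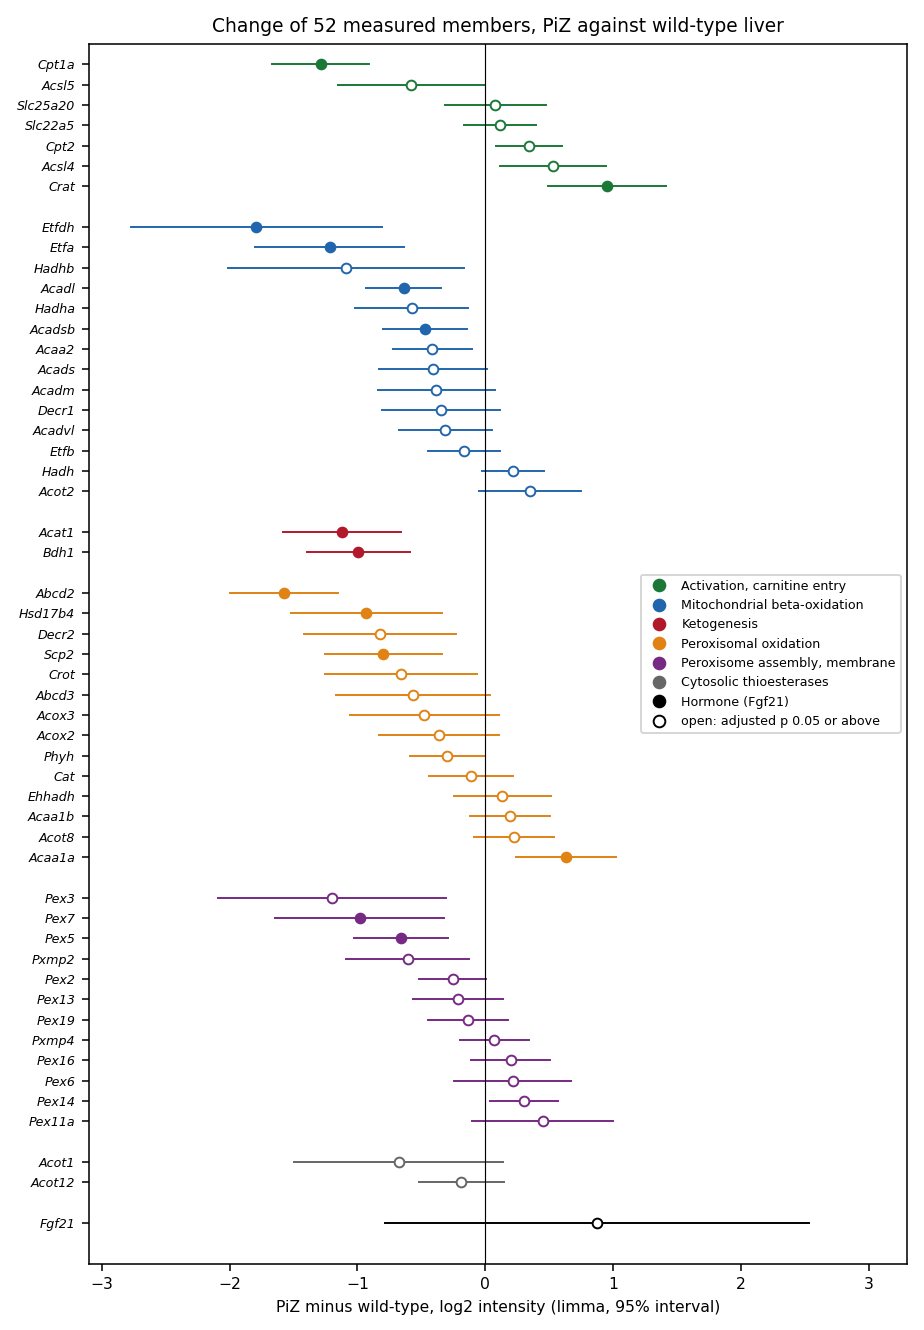
Change of each of the 52 measured genes, PiZ minus wild-type in log2 intensity from limma, with the 95% interval as a line (3 arrays per group). Genes are grouped by role, filled points passed an adjusted p of 0.05, and 12 of the 14 filled points lie left of 0.

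The size of the change differed between the PiZ arrays. For 44 of the 52 genes (84.6%) PiZ replicate 1 lay nearer to the wild-type mean than the mean of PiZ replicates 2 and 3 did, against 66.7% of all genes. PiZ replicate 1 had a median change of -0.08 over the 52 genes, and PiZ replicates 2 and 3 one of -0.49, beside 0.01 and 0.12 over all genes. Over genes with a mean of at least 6 both medians were -0.05. The spread followed the same split, with a median SD of 0.34 in PiZ and 0.10 in wild-type arrays, beside 0.21 in PiZ and 0.10 in wild-type over all genes. Set alone against wild-type, under the assumption that it varies as wild-type does, PiZ replicate 1 gave 6 falls (Cpt1a, Etfa, Etfdh, Acat1, Bdh1 and Abcd2) and 2 rises (Crat and Acsl4), where 9.80% of all genes fell and 8.83% rose. With this 3′ to 5′ signal loss entered as a covariate, the same 6 genes and Cat fell and Acsl4 rose, where 7.64% of all genes fell and 7.00% rose. Only PiZ replicates 2 and 3 had a high covariate value, so that fit rests largely on PiZ replicate 1 and is no independent check of it. Etfa, for one, stood at -0.57 with the covariate and at -0.58 in PiZ replicate 1.

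Leaving out an array moved the counts in both directions. Without PiZ replicate 1, 30 of the 52 genes fell and 9 rose, beside 22.4% and 27.4% of all genes. Without PiZ replicate 2 the counts were 7 falls and 1 rise, beside 7.54% and 6.87% of all genes, and without PiZ replicate 3 they were 5 falls and 1 rise, beside 5.96% and 5.67%. Without wild-type replicate 1, 2 or 3 they were 4, 5 and 4 falls, beside 4.68%, 5.34% and 4.44% of all genes. Rises were 0 in each of these 3 limma fits, beside 4.24%, 4.84% and 4.18% of all genes. At an unadjusted p below 0.05, 5, 3 and 4 of the 52 genes were higher. The share of all genes at that unadjusted p was not counted in these fits. The calls over all genes thus moved in the same direction as those of the 52. Cpt1a, Acat1, Bdh1 and Abcd2 fell in each of these 6 fits, and were also the 4 genes below an adjusted p of 0.01 with all arrays.

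**Figure D2:**
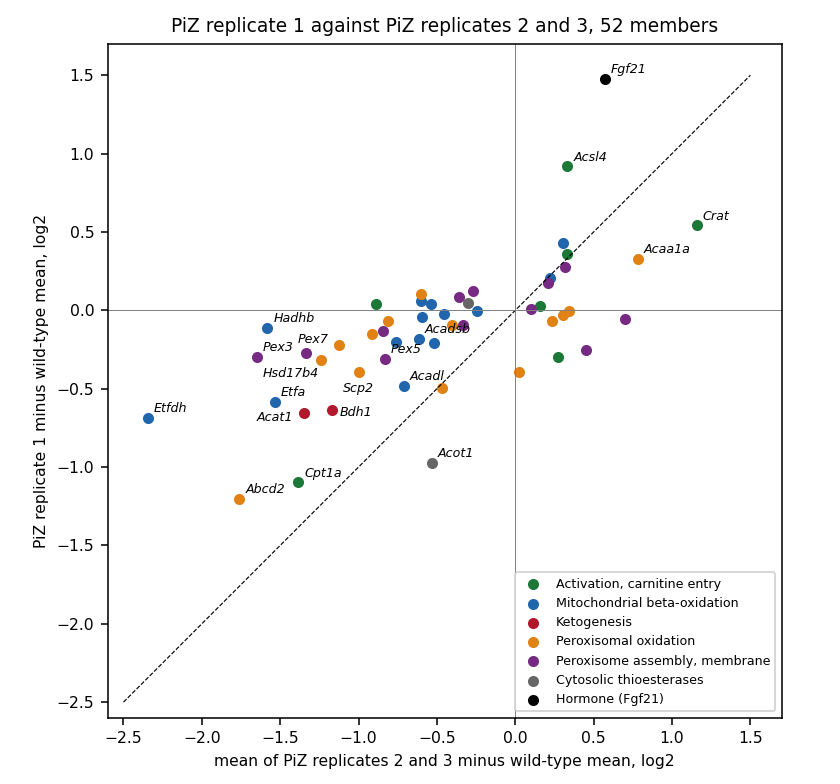
Each point is 1 of the 52 genes: the mean of PiZ replicates 2 and 3 minus the wild-type mean (horizontal) against PiZ replicate 1 minus the same mean (vertical), both in log2 intensity, with the dashed line marking equal change. Most points on the left lie above the line, nearer to 0 on the vertical axis, and Abcd2 and Cpt1a are the 2 called genes below -1 on both axes.

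Promoter sequence is shown for 4 of the genes: Fgf21, the hormone of the set, Cpt1a and Etfdh, the genes of carnitine entry and of mitochondrial oxidation with the largest falls, and Acaa1a, the peroxisomal gene that rose. Each is the 250 bases before the transcription start from RefSeq (GRCm38.p6), 5′ to 3′ on the gene's strand. The windows lie at chr7:45615491-45615740 (Fgf21, minus strand), chr19:3323051-3323300 (Cpt1a, plus strand), chr3:79628768-79629017 (Etfdh, minus strand) and chr9:119341044-119341293 (Acaa1a, plus strand). Capitals mark the matches of the motifs searched.
Fgf21: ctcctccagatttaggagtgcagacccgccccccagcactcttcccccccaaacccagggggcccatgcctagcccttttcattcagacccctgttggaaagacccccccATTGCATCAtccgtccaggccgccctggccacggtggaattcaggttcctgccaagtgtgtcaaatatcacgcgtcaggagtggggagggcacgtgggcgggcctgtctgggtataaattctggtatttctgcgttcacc
Cpt1a: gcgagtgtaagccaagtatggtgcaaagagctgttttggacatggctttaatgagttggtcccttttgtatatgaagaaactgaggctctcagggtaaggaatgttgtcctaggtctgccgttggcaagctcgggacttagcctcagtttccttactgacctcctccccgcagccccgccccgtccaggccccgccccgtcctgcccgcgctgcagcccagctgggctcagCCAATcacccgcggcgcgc
Etfdh: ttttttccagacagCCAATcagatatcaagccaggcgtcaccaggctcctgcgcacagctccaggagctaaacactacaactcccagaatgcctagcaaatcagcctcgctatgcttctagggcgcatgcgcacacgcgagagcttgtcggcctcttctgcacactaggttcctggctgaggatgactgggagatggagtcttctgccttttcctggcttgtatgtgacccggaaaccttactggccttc
Acaa1a: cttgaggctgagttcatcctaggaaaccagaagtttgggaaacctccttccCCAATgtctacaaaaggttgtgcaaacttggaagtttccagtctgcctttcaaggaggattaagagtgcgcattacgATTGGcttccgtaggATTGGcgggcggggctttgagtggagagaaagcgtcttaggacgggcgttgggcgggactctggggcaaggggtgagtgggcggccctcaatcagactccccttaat
The motifs were searched on both strands in the windows of the 45 listed genes that had one. The DR1 consensus for PPAR-alpha with its partner RXR, a direct repeat with a single spacer base, and a looser form with 1 free base in each repeat unit were found in 0 of the 45 genes, and in 0.0407% and 0.4% of all 27025 genes with a window, where a gene counts if any of its windows holds the motif. The letters TGATGNAAT, a composite element bound by ATF4 in the amino acid and unfolded protein responses, were found in 1 of the 45 genes, Fgf21, and in 0.91% of all genes, with the match starting 140 bases before the Fgf21 start on the opposite strand. The CCAAT box was found in 21 of the 45 genes (46.7%) and in 37.5% of all genes, among them 5 of the 9 genes that fell and had a window. Every match of the DR1 consensus is also one of its looser form, and no matches overlapped in the windows shown.

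Carnitine entry moved both ways, with its gatekeeper lower. Of 9 listed genes of activation and entry, 7 were measured, 1 fell and 1 rose, with a median of 0.12. Each is 14.3% of those measured, where 12.3% of all genes fell and 11.3% rose. Cpt1a, carnitine palmitoyltransferase 1A of the outer mitochondrial membrane and the rate-limiting step of entry, read 10.03, 9.76 and 9.72 in PiZ arrays and 11.06, 10.89 and 11.42 in wild-type arrays. All PiZ values lay below all wild-type values, by 1.29 on average (SE 0.16, limma adjusted p = 0.00274), a 2.44-fold lower signal. PiZ replicate 1 alone was 1.10 below wild-type, and the other 2 probe sets of Cpt1a gave -0.81 and -0.93.

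Crat, carnitine acetyltransferase, which buffers acetyl-CoA against acetylcarnitine, read 7.73, 8.14 and 8.56 in PiZ arrays and 7.14, 7.15 and 7.28 in wild-type arrays. The groups did not overlap, and Crat rose by 0.95 (SE 0.20, limma adjusted p = 0.0149). Its call was lost without wild-type replicate 1, 2 or 3 (adjusted p = 0.0638, 0.0597 and 0.0536) and with the 3′ to 5′ covariate (adjusted p = 0.111). The later carnitine steps did not pass. Cpt2, the inner membrane transferase, differed by 0.34 (adjusted p = 0.0615), with PiZ above wild-type in every array, and the carnitine-acylcarnitine translocase Slc25a20 by 0.08 (adjusted p = 0.747). The carnitine transporter Slc22a5 differed by 0.12 (adjusted p = 0.491). The acyl-CoA synthetases Acsl4, which prefers arachidonate, and Acsl5 differed by 0.53 (adjusted p = 0.0668) and -0.58 (adjusted p = 0.125). Acsl4 stood at 0.92 in PiZ replicate 1 alone, beside 0.33 over replicates 2 and 3, and the adjusted p was 0.00715 in PiZ replicate 1 alone and 0.0345 without it.

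Genes of the mitochondrial beta-oxidation spiral had more falls than rises, and the falls of Etfdh and Etfa, which carry electrons away from the acyl-CoA dehydrogenases, were the largest of the 14 by the brightest probe set. With the mean of all probe sets Acaa2 stood at -1.47, beyond Etfa. All 14 listed genes were measured, 4 fell (28.6%) and 0 rose, and the median was -0.41. Of all genes 12.3% fell and 11.3% rose, and of genes with a mean of at least 6, 18.7% and 13.8%. At an unadjusted limma p below 0.05, 7 of the 14 were lower and 0 higher, beside 2365 and 2596 of all 12393 genes. PiZ replicate 1 alone had a median of -0.08, and the other PiZ arrays one of -0.60, beside 0.01 and 0.12 over all genes. Etfdh, the ubiquinone oxidoreductase that passes electrons from ETF to the respiratory chain, read 10.63, 8.80 and 9.15 in PiZ arrays and 11.48, 11.16 and 11.32 in wild-type arrays. PiZ replicate 1 was the highest of the PiZ values and still below wild-type, and the mean fell by 1.79 (SE 0.42, limma adjusted p = 0.0224). Etfa, the alpha subunit of ETF, read 11.46, 10.49 and 10.53 in PiZ arrays and 12.12, 12.02 and 12.00 in wild-type arrays. It fell by 1.22 (SE 0.25, adjusted p = 0.014), without overlap, and its PiZ arrays ran in the same order.

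The call of Etfdh was lost without PiZ replicate 2 or 3 (limma adjusted p = 0.0627 and 0.0884) and without wild-type replicate 1, 2 or 3 (0.0811, 0.0623 and 0.08). That of Etfa was lost without PiZ replicate 3 (adjusted p = 0.0563) and without wild-type replicate 1, 2 or 3 (0.0596, 0.0519 and 0.0546). Both fell in PiZ replicate 1 alone, by 0.69 (adjusted p = 0.0259) and 0.58 (0.0185). Their partner Etfb, the beta subunit, differed by -0.17 (adjusted p = 0.334).

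Acadl, the long-chain acyl-CoA dehydrogenase, read 11.17, 10.89 and 10.99 in PiZ arrays and 11.63, 11.53 and 11.80 in wild-type arrays. The groups did not overlap and the PiZ arrays lay close together, with a fall of 0.64 (SE 0.13, limma adjusted p = 0.0127). This call was lost without wild-type replicate 1 or 3 (adjusted p = 0.0558 and 0.0638) and in PiZ replicate 1 alone (0.0578, -0.48), and a dim second probe set of Acadl read 0.07. Acadsb, a dehydrogenase of short branched chains from isoleucine, read 10.02, 9.61 and 9.57 in PiZ arrays and 10.19, 10.25 and 10.18 in wild-type arrays. It fell by 0.47 (SE 0.14, adjusted p = 0.0491), the value closest to the threshold. The Acadsb call was lost without any 1 array other than PiZ replicate 1 (adjusted p = 0.127 and 0.147 without PiZ replicates 2 and 3, and 0.137, 0.143 and 0.134 without wild-type replicates 1, 2 and 3). Acadsb stood at -0.18 in PiZ replicate 1 alone (adjusted p = 0.284) and at -0.20 with the 3′ to 5′ covariate (0.359).

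The other dehydrogenases and the trifunctional protein did not pass. Very long-chain Acadvl, medium-chain Acadm and short-chain Acads differed by -0.31, -0.38 and -0.41 (limma adjusted p = 0.175, 0.186 and 0.136). In PiZ replicate 1 alone these 3 genes stood at -0.03, 0.06 and -0.04. Hadha and Hadhb, the subunits of the trifunctional protein, differed by -0.58 (adjusted p = 0.0618) and -1.09 (adjusted p = 0.081). By this brightest set Hadhb was 0.11 lower in PiZ replicate 1 but 1.58 lower in replicates 2 and 3. A second Hadhb set, almost as bright, read -0.48 in PiZ replicate 1 and -0.41 in replicates 2 and 3. That set passed when all probe sets were tested (limma adjusted p = 0.0291). The thiolase Acaa2 (-0.42, adjusted p = 0.0574), the dienoyl reductase Decr1 (-0.35, 0.228), the hydroxyacyl dehydrogenase Hadh (0.22, 0.164) and the matrix thioesterase Acot2 (0.35, 0.172, with a mean below 6) did not pass either. Over mitochondrial entry and oxidation together, 6 of 21 genes changed (28.6%). That lies between the 23.6% of all genes and the 32.6% of genes with a mean of at least 6. The count was 16, 4 and 3 without PiZ replicates 1, 2 and 3, where 49.8%, 14.4% and 11.6% of all genes changed, and 1, 2 and 1 without wild-type replicates 1, 2 and 3, where 8.92%, 10.2% and 8.62% did.

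Both measured genes of ketogenesis fell, in every alternative fit run. Acat1, the mitochondrial acetoacetyl-CoA thiolase that supplies the first step and also acts in isoleucine breakdown, read 12.17, 11.36 and 11.60 in PiZ arrays and 12.84, 12.80 and 12.85 in wild-type arrays. The wild-type arrays lay close together (SD 0.03) and all PiZ arrays below them, and Acat1 fell by 1.12 (SE 0.20, limma adjusted p = 0.00881). Its other 2 probe sets gave -0.58 and -0.64. Bdh1, the dehydrogenase that reduces acetoacetate to beta-hydroxybutyrate, read 11.49, 11.11 and 10.81 in PiZ arrays and 12.13, 12.10 and 12.17 in wild-type arrays. Again no array overlapped, and Bdh1 fell by 0.99 (SE 0.17, adjusted p = 0.00808), with -1.22 in its second probe set.

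The 2 ketogenic genes fell by similar amounts in PiZ replicate 1 alone, by 0.66 (Acat1, limma adjusted p = 0.0111) and 0.64 (Bdh1, 0.0127). With the 3′ to 5′ covariate the falls were 0.63 (adjusted p = 0.0183) and 0.65 (0.0398), against 1.12 and 0.99 with no covariate. Of 7 further genes of ketone metabolism and export, 4 were measured, 1 rose and 0 fell (1 and 0 at an unadjusted p below 0.05). Over all genes 11.3% rose and 12.3% fell. At the unadjusted limma p, 2596 of all 12393 genes were higher and 2365 lower. Slc16a6, a monocarboxylate transporter that exports beta-hydroxybutyrate from hepatocytes in zebrafish, read 8.46, 8.53 and 8.38 in PiZ arrays and 7.19, 6.80 and 6.79 in wild-type arrays. It rose by 1.53 (SE 0.14, adjusted p = 0.000845), with 1.54 in PiZ replicate 1 and 1.53 over the other PiZ arrays.

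**Figure D3:**
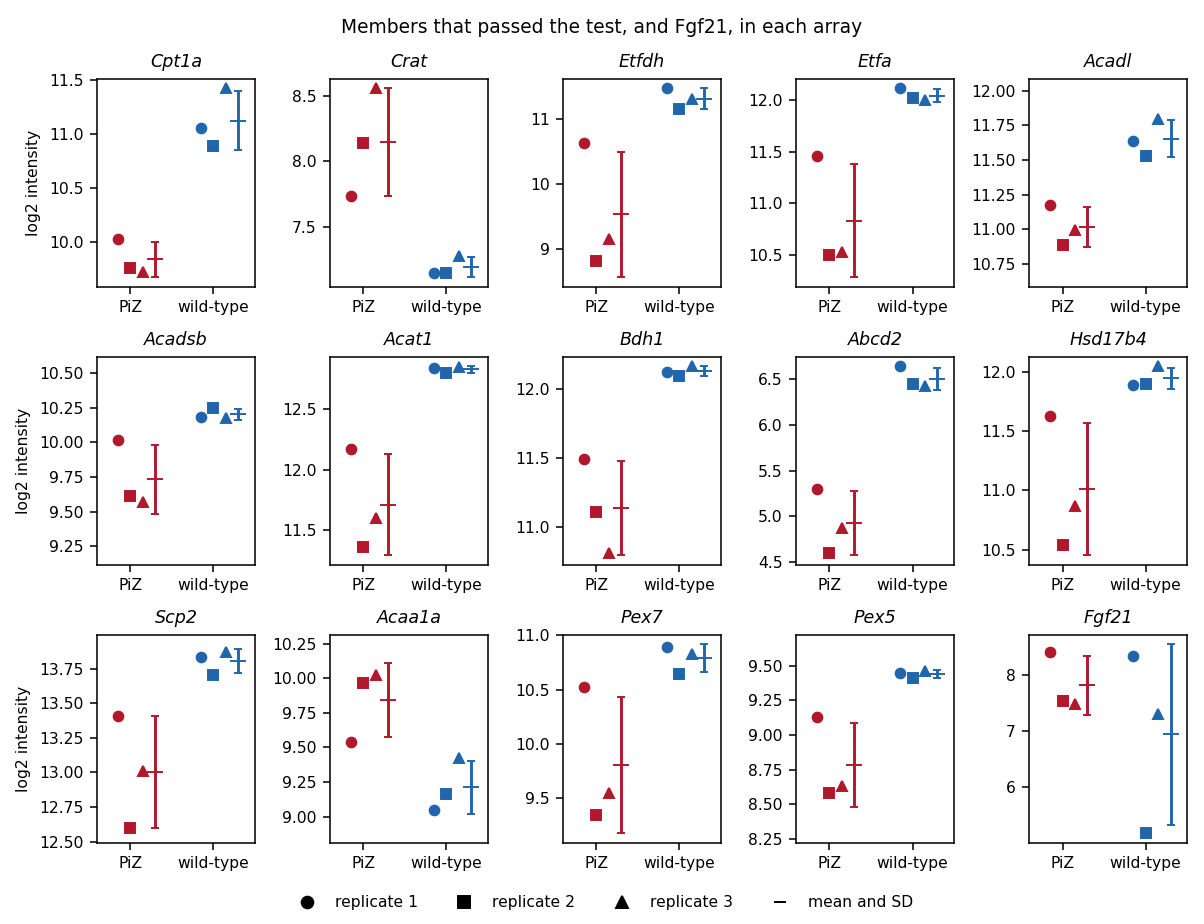
Log2 intensity in each of the 6 arrays (symbols by replicate number, PiZ left and wild-type right, bars are mean and SD, n = 3) for the 14 genes that passed and for Fgf21; vertical axes differ between panels. PiZ replicate 1 (circle) is the PiZ value nearest to wild-type in each of the 14 panels, and Fgf21 overlaps between the groups.

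Among peroxisomal oxidation genes the fall of a transporter was the largest. All 14 listed genes were measured, 3 fell and 1 rose, and the median was -0.42 (-0.12 in PiZ replicate 1, -0.53 in PiZ replicates 2 and 3). These are 21.4% and 7.14%, beside 12.3% and 11.3% of all genes and 18.7% and 13.8% of genes with a mean of at least 6. Abcd2, an ABC transporter of very long-chain acyl-CoA in the peroxisomal membrane, read 5.30, 4.60 and 4.88 in PiZ arrays and 6.64, 6.44 and 6.43 in wild-type arrays. It fell by 1.57 (SE 0.18, limma adjusted p = 0.00205), without overlap and by 1.20 in PiZ replicate 1. Abcd2 has 1 probe set, with a mean below 6, so its size is uncertain where the signal nears background, and it was left out of the fit without dim genes. The bulk transporter Abcd3 (PMP70) differed by -0.56 (adjusted p = 0.144), with PiZ replicate 1 at -0.07.

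Hsd17b4, the D-bifunctional protein of very long and branched chains, read 11.63, 10.54 and 10.87 in PiZ arrays and 11.89, 11.90 and 12.04 in wild-type arrays. PiZ replicate 1 was the nearest to wild-type, at -0.32, and the group mean fell by 0.93 (SE 0.25, limma adjusted p = 0.0363). Its second probe set, almost as bright, read -0.03 (adjusted p = 0.864 over all probe sets). Scp2, which encodes the thiolase SCPx and a sterol carrier protein, read 13.41, 12.60 and 13.01 in PiZ arrays and 13.84, 13.70 and 13.87 in wild-type arrays. It fell by 0.80 (SE 0.20, adjusted p = 0.0264), yet it was the 1 gene of the 52 with probe sets called in opposite directions, at -1.36 and 1.60 in its dimmest sets. The calls of Hsd17b4 and Scp2 were lost without PiZ replicate 3 (adjusted p = 0.12 and 0.0828), wild-type replicate 1 (0.0998 and 0.0916), wild-type replicate 2 (0.0948 and 0.0692) or wild-type replicate 3 (0.122 and 0.0982), and that of Hsd17b4 without PiZ replicate 2 (0.0874). In PiZ replicate 1 alone they stood at -0.32 and -0.40 (adjusted p = 0.12 and 0.0674), and with the 3′ to 5′ covariate at -0.28 and -0.34 (0.26 and 0.176).

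Acaa1a, the peroxisomal thiolase of straight chains, read 9.54, 9.97 and 10.02 in PiZ arrays and 9.05, 9.16 and 9.42 in wild-type arrays. It rose by 0.63 (SE 0.17, limma adjusted p = 0.033) and by 0.59 in its second probe set. The call was lost without PiZ replicate 2 or 3 (adjusted p = 0.0941 and 0.111) and without wild-type replicate 1, 2 or 3 (0.124, 0.106 and 0.0578). Acaa1a stood at 0.33 both in PiZ replicate 1 alone (adjusted p = 0.221) and with the 3′ to 5′ covariate (0.251). Its close paralog Acaa1b, near the top of the array's range, differed by 0.19 (adjusted p = 0.308), and cross-hybridization between the pair was not tested. The bifunctional enzyme Ehhadh, a classical PPAR-alpha target, differed by 0.13 (adjusted p = 0.556), and the thioesterase Acot8 by 0.23 (0.24). The remaining genes of this route ran from -0.82 to -0.11 and did not pass: the dienoyl reductase Decr2 (adjusted p = 0.053), the carnitine octanoyltransferase Crot (0.0967), the branched-chain oxidases Acox2 and Acox3 (0.214 and 0.192), the phytanoyl-CoA hydroxylase Phyh (0.119) and catalase, Cat (0.576). Over this route 4 of 14 genes changed (28.6%), beside 23.6% of all genes and 32.6% of genes with a mean of at least 6. The count was 11, 2 and 1 without PiZ replicates 1, 2 and 3 and 1 without any 1 wild-type array, fits in which 49.8%, 14.4% and 11.6% and then 8.62% to 10.2% of all genes changed.

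Peroxisome assembly genes mostly did not pass, and the share that did was near that of all genes. Of 12 listed genes, all measured, 2 fell and 0 rose (4 and 1 at an unadjusted p below 0.05), with a median of -0.18. At that unadjusted limma p, 2365 of all 12393 genes were lower and 2596 higher. Of the 7398 genes with a mean of at least 6, 2123 were lower and 1582 higher. The 2 falls are 16.7% of the list, beside 12.3% of all genes and 18.7% of genes with a mean of at least 6. Pex5, the receptor that carries most matrix enzymes into the peroxisome, read 9.13, 8.58 and 8.63 in PiZ arrays and 9.44, 9.41 and 9.47 in wild-type arrays, and fell by 0.66 (SE 0.16, limma adjusted p = 0.0242). Pex7, the receptor for the other import signal, which thiolase and phytanoyl-CoA hydroxylase carry, read 10.52, 9.35 and 9.55 in PiZ arrays and 10.89, 10.65 and 10.83 in wild-type arrays, and fell by 0.98 (SE 0.28, adjusted p = 0.0428). In both genes PiZ replicate 1 lay between the other PiZ arrays and wild-type, at -0.31 and -0.27. Neither was called in PiZ replicate 1 alone (adjusted p = 0.0938 and 0.215) or with the 3′ to 5′ covariate (0.128 and 0.247). The calls of Pex5 and Pex7 were lost without PiZ replicate 2 (limma adjusted p = 0.0705 and 0.117), PiZ replicate 3 (0.0871 and 0.141), wild-type replicate 1 (0.0862 and 0.131), wild-type replicate 2 (0.0761 and 0.0933) or wild-type replicate 3 (0.092 and 0.128).

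Membrane assembly factors went different ways without passing. Pex3, which docks membrane proteins, differed by -1.20 (limma adjusted p = 0.0572), at -0.30 in PiZ replicate 1 and -1.65 in replicates 2 and 3. Its partners Pex19 and Pex16 differed by -0.14 (adjusted p = 0.467) and 0.20 (0.294). The docking proteins Pex13 and Pex14 differed by -0.21 (0.319) and 0.30 (0.0878), the ubiquitin ligase Pex2 by -0.26 (0.134), and the export ATPase Pex6 by 0.22 (0.437). Pex11a, which drives peroxisome elongation and division and is induced by PPAR-alpha, differed by 0.45 (0.196). The membrane proteins Pxmp2 and Pxmp4 differed by -0.61 (0.0682) and 0.07 (0.671). Without PiZ replicate 1, 10 of the 12 genes changed, and without any 1 of the other 5 arrays 0 changed in limma, where 3 or 4 had an unadjusted p below 0.05. The share of all genes at that unadjusted p was not counted in these fits. Of all genes 49.8% changed without PiZ replicate 1, and 8.62% to 14.4% without 1 of the other 5 arrays.

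Probe sets of the same gene gave a check within each array. The 52 genes held 87 probe sets, 25 genes had more than 1, and in 18 of those 25 all sets lay in 1 direction. Of 9 called genes with several sets, 7 had all of them in 1 direction (Cpt1a, Crat, Acat1, Bdh1, Hsd17b4, Acaa1a and Pex5). A shared direction is a weak check, since the second Hsd17b4 set read only -0.03. A further set was called in 5 of the 9 (Cpt1a, Acat1, Bdh1, Acaa1a and Scp2), and sets of Scp2 were called in opposite directions. In 5 genes not called by their brightest set, a dimmer set passed when all probe sets were tested. Such sets fell by 1.09 and 2.90 for Acaa2, by 0.43 for Hadhb, by 0.45 for Cat and by 0.68 for Slc25a20, and rose by 0.71 for Acsl4. The dimmest Acaa2 set read 9.59, 6.36 and 6.56 in PiZ arrays and 10.62, 10.00 and 10.58 in wild-type arrays, with PiZ replicates 2 and 3 far below PiZ replicate 1.

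**Figure D4:**
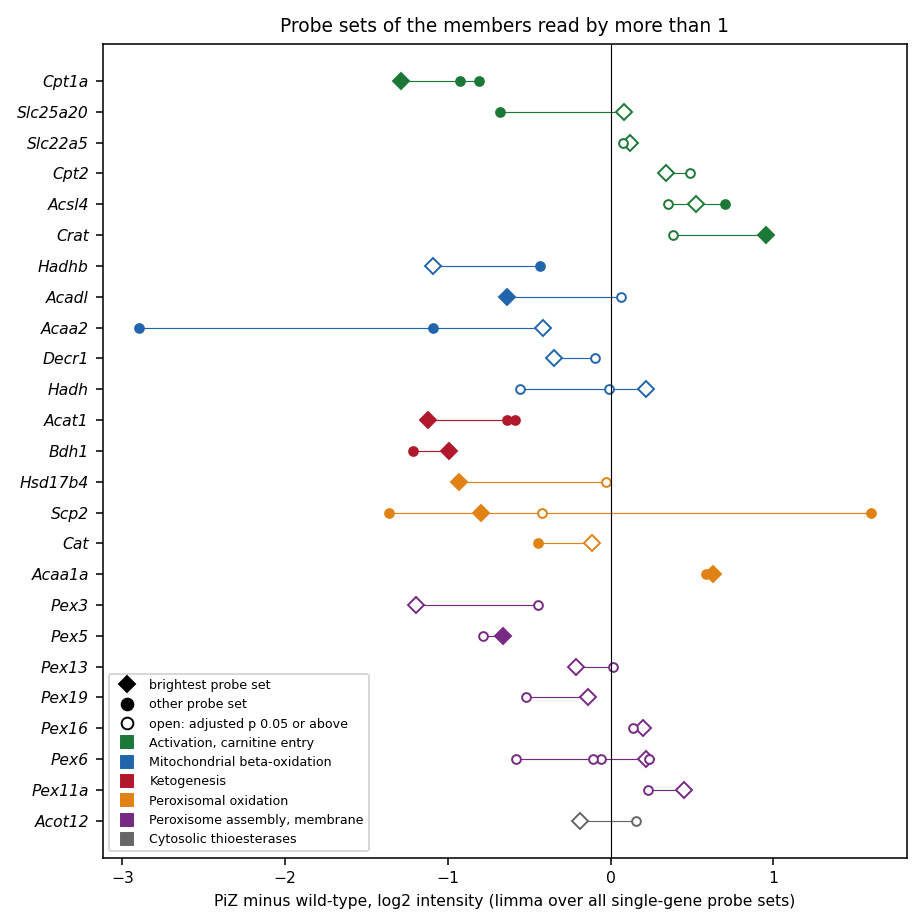
Change of every single-gene probe set of the 25 genes with more than 1, PiZ minus wild-type in log2 intensity, with diamonds for the brightest set, circles for the others, and filled symbols for an adjusted p below 0.05 over all probe sets. The 3 sets of Cpt1a, the 3 of Acat1 and the 2 of Bdh1 are filled and left of 0, while the sets of Scp2 span -1.36 to 1.60.

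Fgf21, the fasting and stress hormone that liver secretes to raise fat use, did not differ beyond the spread of wild-type arrays. It read 8.41, 7.54 and 7.48 in PiZ arrays and 8.33, 5.17 and 7.31 in wild-type arrays. The groups overlapped, since wild-type replicate 1 read almost as high as the highest PiZ array, and wild-type replicate 2 lay far below the rest. The difference was 0.87 (SE 0.71, 95% interval -0.79 to 2.54, limma adjusted p = 0.384), and it became -0.01 without wild-type replicate 2. Fgf21 is a known target of PPAR-alpha and of ATF4.

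The 2 cytosolic thioesterases did not pass. Acot1, which releases fatty acids from acyl-CoA and is induced by fasting, read 7.003, 6.96 and 7.93 in PiZ arrays and 7.83, 7.46 and 8.63 in wild-type arrays. The groups overlapped, with a difference of -0.68 (SE 0.35, limma adjusted p = 0.189). Acot1 has related neighbours in its gene cluster that its probes may also read. Acot12, an acetyl-CoA hydrolase, read 9.87, 9.45 and 9.60 in PiZ arrays and 9.87, 9.67 and 9.94 in wild-type arrays, and PiZ replicate 1 stood at the level of wild-type replicate 1. Its difference was -0.19 (SE 0.14, adjusted p = 0.357), with 0.16 in its second probe set.

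Of 18 listed regulators of the route, 17 were measured, 4 rose and 3 fell, with a median of -0.19. These are 23.5% and 17.6% of the list, beside 11.3% and 12.3% of all genes and 13.8% and 18.7% of genes with a mean of at least 6. The list was chosen with earlier results of these data known, so these shares are no test of it. Atf4 rose by 0.88 (SE 0.11, limma adjusted p = 0.0029) and Ppargc1a by 0.80 (SE 0.23, 0.0394). The Ppargc1a call was lost without PiZ replicate 3 or any 1 wild-type array. Sirt1 and Fgfr4 fell by 0.58 (SE 0.13, 0.0189) and 0.85 (SE 0.15, 0.0077). The Sirt1 call was likewise lost without PiZ replicate 3 or any 1 wild-type array (limma adjusted p up to 0.0809). Ppara, which encodes PPAR-alpha, read 9.02, 9.59 and 8.98 in PiZ arrays and 10.07, 10.23 and 10.61 in wild-type arrays. It fell by 1.11 (SE 0.21, limma adjusted p = 0.0103), and PiZ replicate 1 stood at -1.28, beside -1.02 for the mean of PiZ replicates 2 and 3. Ddit3 and Trib3, which act downstream of ATF4, rose by 3.70 (SE 0.14, adjusted p = 1.36e-05) and 4.13 (SE 0.21, adjusted p = 5.09e-05).

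Of 17 listed PPAR-alpha target genes outside the set, 13 were measured, 1 rose and 2 fell, with a median of -0.01. The 23.1% that changed are near the 23.6% of all genes. Pdk4, the kinase that shuts pyruvate dehydrogenase in favour of fat, read 9.40, 7.84 and 8.25 in PiZ arrays and 6.24, 5.85 and 5.32 in wild-type arrays, and rose by 2.69 (SE 0.40, limma adjusted p = 0.00487). Its rise was larger in PiZ replicate 1 (3.60) than in replicates 2 and 3 (2.24). Vnn1, a pantetheinase, fell by 1.04 (SE 0.12, adjusted p = 0.00176), and the fatty acid binding protein Fabp1, near the top of the array's range, fell by 0.36 (SE 0.10, adjusted p = 0.0338). The Fabp1 call was lost without any 1 array other than PiZ replicate 1 (adjusted p = 0.0736 and 0.0799 without PiZ replicates 2 and 3, and 0.119, 0.118 and 0.125 without wild-type replicates 1, 2 and 3).

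Further enzymes of both organelles were taken from lists beside the 54 genes. Of 31 listed mitochondrial and acyl-CoA genes, 27 were measured, 9 fell and 4 rose (33.3% and 14.8%, median -0.08). Of all genes 12.3% fell and 11.3% rose, and of genes with a mean of at least 6, 18.7% and 13.8%. The medium-chain acyl-CoA synthetases Acsm2 and Acsm3 fell by 2.33 (SE 0.11, limma adjusted p = 3.07e-05) and 1.56 (SE 0.22, 0.00374), while the thioesterase Acot11 rose by 1.22 (SE 0.15, 0.00256). The 4 probe sets of Acsm2 ran from -2.33 to 0.11. Of 30 listed peroxisomal enzymes, 24 were measured, 9 fell and 1 rose (37.5% and 4.17%), with a median of -0.55 (-0.22 in PiZ replicate 1, -0.61 in replicates 2 and 3). Of the 24, 3 had a mean below 6, and of genes with a mean of at least 6, 18.7% fell and 13.8% rose. Pipox, the pipecolate and sarcosine oxidase, fell by 1.55 (SE 0.20, adjusted p = 0.00287), the glycolate oxidase Hao1 by 1.41 (SE 0.17, 0.00219) and the peroxisomal protease Lonp2 by 1.13 (SE 0.33, 0.043). The Lonp2 call was lost without PiZ replicate 2 or 3 (adjusted p = 0.125 and 0.143) and without wild-type replicate 1, 2 or 3 (0.134, 0.0976 and 0.121). Lonp2 stood at -0.28 in PiZ replicate 1 alone (adjusted p = 0.214), beside -1.56 in PiZ replicates 2 and 3, and at -0.24 with the 3′ to 5′ covariate (0.262).

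Pipox read 9.67, 9.02 and 8.90 in PiZ arrays and 10.69, 10.73 and 10.81 in wild-type arrays, and Hao1 read 11.42, 10.86 and 10.88 in PiZ arrays and 12.53, 12.44 and 12.41 in wild-type arrays. Neither gene overlapped between the groups, and PiZ replicate 1 stood at -1.07 and -1.04. Of 12 further assembly and division genes, 7 were measured, 1 fell and 0 rose (2 and 2 at an unadjusted p below 0.05 in limma). The 1 fall is 14.3% of those measured, where 12.3% of all genes fell and 11.3% rose. At the unadjusted limma p, 2365 of all 12393 genes were lower and 2596 higher. Pex26, the membrane anchor of the export ATPases, fell by 0.84 (SE 0.21, limma adjusted p = 0.0292). That call was lost without PiZ replicate 2 or 3 (adjusted p = 0.0857 and 0.104) and without wild-type replicate 1, 2 or 3 (0.0631, 0.0597 and 0.0905), in PiZ replicate 1 alone (0.215) and with the 3′ to 5′ covariate (0.236).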

How the data were processed

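Liver RNA of 3 PiZ and 3 wild-type biological replicates was hybridized as biotinylated cRNA, per the labels' protocols, with 1 array each. The labels do not say whether a replicate is 1 mouse. Per the submitters' processing notes the authors used affy and RMA, and each deposited value is a probe set's log2 intensity. RMA makes the arrays' distributions equal before probes are summarized into probe sets, which hides any shift common to the bulk of genes. The deposited probe set values were close but not equal, with array medians from 6.13 to 6.19. Lower quartiles were 4.35, 4.46 and 4.45 in PiZ replicates 1, 2 and 3 and 4.28 to 4.32 in wild-type arrays. Versions and chip definition were not given in the sources used here, and no detection calls were used.

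Platform annotation named 1 gene for 20380 of 22690 probe sets. No build is named by the values, and promoter positions are those of RefSeq. PiZ was tested against wild-type in R 4.3.3 by limma 3.58.1 (lmFit, eBayes, two-sided, no covariate), with Benjamini-Hochberg adjustment over 12393 genes and a threshold of 0.05. Alternative fits use the same test with the change named beside their values, and probe sets were also tested with adjustment over all single-gene probe sets. The fit was tested on simulated data. The number of arrays limits precision. Figures came from matplotlib 3.10.9, and tables from pandas 2.3.3 under Python 3.11.15.

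The genes and lists were chosen with earlier results of these data known. All listed genes are accounted for, and array values are given for Fgf21, Acat1, Bdh1, Acot1, Acot12 and up to 4 called genes per direction in each role. Of each further list the up to 3 called genes with the largest change are named, and of the regulators all 7 called. Acot3, Acot4 and G0s2 were chosen after their values were seen. Alternatives changed the probe set, dim gene filter, scaling, variance model, array weights, covariate, block, threshold and arrays used.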

Additional observations from a re-analysis of the deposited data

How the results depend on the processing

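Cpt1a, Acat1 and Bdh1 fell in all 15 alternative fits, and Abcd2 in the 14 that held it. These fits share arrays and are not independent of one another. Of the genes listed, 2 were higher and 12 lower in PiZ with all arrays and no covariate, and 6 mitochondrial, 4 peroxisomal and 2 assembly genes changed. The higher count was 3 with the mean of all probe sets, 5 after cyclic loess and 4 centred on reference genes, a centring that moved the median of all genes to 0.30 and in which 3 of the 5 reference genes had themselves passed (Tbp and Gusb fell, Ywhaz rose). With array weights 10 were higher and 29 lower, and 16, 12 and 9 genes of the 3 routes changed, where 29.4% of all genes were higher and 23.2% lower. With the 3′ to 5′ covariate 1 was higher and 7 lower (7.00% and 7.64% of all genes), and 4, 2 and 0 changed. In PiZ replicate 1 alone 2 were higher and 6 lower (8.83% and 9.80%), and 5, 1 and 0 changed. At a threshold of 0.01, 0 were higher and 4 lower (3.58% and 3.79%), and 1, 1 and 0 changed. Without 1 array, 0 to 9 were higher and 4 to 30 lower, and 1 to 16, 1 to 11 and 0 to 10 changed. The cause of these shifts was not tested.

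Genes that changed sign were all uncalled with all arrays. With the covariate Acsl5 stood at 0.0558, Slc25a20 at -0.301, Acadm at 0.103, Etfb at 0.0072, Decr1 at 0.0931, Abcd3 at 0.0188, Acox2 at 0.0828, Ehhadh at -0.0337, Acaa1b at -0.0289, Acot8 at -0.0362, Pex6 at -0.255, Pex13 at 0.113, Pex19 at 0.133 and Acot12 at 0.0929. In PiZ replicate 1 alone Acsl5 stood at 0.0416, Slc25a20 at -0.298, Acadm at 0.061, Decr1 at 0.0386, Acox2 at 0.105, Ehhadh at -0.067, Acaa1b at -0.0316, Acot8 at -0.0049, Pex6 at -0.255, Pex11a at -0.0539, Pex13 at 0.0863, Pex19 at 0.121 and Acot12 at 0.0452. Centred on reference genes, Etfb stood at 0.055, Cat at 0.108, Pex13 at 0.0082, Pex19 at 0.083 and Acot12 at 0.035, and after cyclic loess Cat at 0.0347. With the mean of all probe sets Slc25a20 stood at -0.301, Hadh at -0.117 and Pex6 at -0.0607. Without 1 array, Slc25a20 ran from -0.0174 to 0.27, Ehhadh from -0.0442 to 0.24, Cat from -0.20 to 0.0265 and Fgf21 from -0.0079 to 1.57.

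Whether the replicate numbers pair the samples cannot be told from these values. Deviations of same-numbered arrays from their group means correlated at 0.264, 0.285 and -0.03. The same-numbered wild-type array was the best match for PiZ replicates 1 and 2, while PiZ replicate 3 correlated best with wild-type replicate 2 (0.252). Such deviations cancel within each group of 3, so the correlations are not independent of one another. With the replicate block 3 genes were higher and 18 lower (12.0% and 14.0% of all genes), and 8, 6 and 4 changed in the 3 routes. Dim probe sets limit what can be said of Abcd2, Acox3 and Acot2.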

Other observations

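Among wild-type livers, some genes of lipid handling differed widely between samples. Wild-type replicate 3 held the highest wild-type reading of Acot1 (8.63, against 7.83 and 7.46 in wild-type replicates 1 and 2) and of its cluster neighbours Acot3 (9.72, against 6.66 and 6.94) and Acot4 (6.91, against 5.88 and 5.38). The 3 PiZ arrays read 6.98, 6.73 and 7.24 for Acot3 and 6.37, 5.67 and 6.08 for Acot4, and the groups overlapped for both. The sequences of these genes were not compared here, and their probe sets may read one another's transcripts. G0s2, an inhibitor of the lipase ATGL, read 8.77, 7.72 and 9.13 in PiZ arrays and 11.39, 8.70 and 10.18 in wild-type arrays, with its lowest wild-type value in replicate 2, the array that was also lowest for Fgf21. G0s2 differed by -1.55 (SE 0.65, limma adjusted p = 0.116).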
